A study of Mus musculus with 9 samples.

Results

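The genes described here are 32 enzymes and regulators of cholesterol and fatty acid synthesis, taken by name from whole-transcript arrays of induced pluripotent stem cells (iPS cells), an embryonic stem cell line and embryonic fibroblasts of the mouse. A gene was read from probe sets that carry exactly 1 gene symbol, and from the one with the highest mean where it had several. All 32 were found among the 19938 genes measured, 3 of them (Idi1, Fdft1 and Acaca) with a second probe set. There were 3 groups of 3 arrays. The iPS group is labelled as inducible pluripotent stem cells made from mouse embryonic fibroblasts, and neither the reprogramming transgenes nor the culture medium nor the strain are named in the labels. The R1 group is R1, 1 mouse embryonic stem cell line. The MEF group is mouse embryonic fibroblasts below passage 3, and gave rise to the iPS cells. The study set the iPS cells against both as controls, and its title concerns their ability to form embryos by tetraploid complementation. The 3 arrays of a line are described as biological repeats, but separate derivations are not stated, and a p-value here refers to the spread among these repeats, which may be partly technical.

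Cells build cholesterol from acetyl-CoA through mevalonate and isoprenoid units to squalene, and from squalene through lanosterol and a chain of sterols on the endoplasmic reticulum. Fatty acids start from the same acetyl-CoA, are lengthened by elongases and receive double bonds from desaturases. The SREBP transcription factors, encoded by Srebf1 and Srebf2, switch on genes of both pathways when sterol is scarce, and the Insig proteins hold them back when it is plentiful. Dividing cells such as fibroblasts and pluripotent cells in culture use both products for new membranes.

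The 4 fatty acid desaturases Scd1, Scd2, Fads1 and Fads2 and the late sterol enzymes Hsd17b7 and Sc5d fell in iPS cells relative to MEF, by 2.16 to 4.49-fold. The other 26 genes, among them the mevalonate enzymes and both SREBP genes, stayed under the 2-fold minimum. Of the 6 genes that fell in iPS cells, all but Scd1 were called lower in R1 cells as well. Scd1 was lower there by 1.69-fold, under the 2-fold minimum. The 6 genes are 18.8% of the members in iPS cells and the 5 are 15.6% in R1 cells. Of all genes 7.57% and 7.93% were called lower, and 13.9% and 14.4% of genes at least as bright, so these counts lie near the latter background. No member was called higher, beside 9.9% and 10.9% of the genes as bright. With an adjusted p alone, 62.5% and 56.2% of the members were lower, against 36.2% and 36% of the genes as bright. By the same rule 18.8% and 15.6% were higher, against 41.6% and 42.7%. Between iPS and R1 cells no member was called, and Scd1 and Fads1 were lower and Ebp higher in iPS cells by smaller amounts.

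Signals are the deposited linear intensities, and differences are on the scale of log2(signal + 16), which understates changes of dim genes. The lowest mean signal of a member over all arrays was 162.2, whereas 30.1% of all genes were under 50. Signals of different genes come from different probes and are not compared with each other. Calls needed both an adjusted p under 0.05 in limma's fit over all 19938 genes and a difference of at least 1, which is 2-fold. The words "rose" and "fell" refer to called genes alone. The error after a difference is its standard error in the fit, and that after a mean is the SD of 3 arrays. Arrays did not overlap for 28 members (87.5%) in iPS against MEF and 26 (81.2%) in R1 against MEF. In iPS against R1 they did not overlap for 12 (37.5%). Of all genes 52.3%, 54.3% and 21.9% did not overlap, so against MEF separate arrays are common in these data. In bulk samples, fewer cells of a type and less RNA per cell cannot be told apart.

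The groups were checked against markers of the cell types. All 8 markers of pluripotent cells rose and all 10 fibroblast markers fell in both iPS and R1 cells against MEF. The pluripotent markers summed to 28590 to 29968 in iPS and 34273 to 35625 in R1 arrays, against 350 to 445 in MEF arrays. The fibroblast markers summed to 3435 to 4209 in iPS and 2433 to 3430.2 in R1 arrays, against 33717 to 38575 in MEF arrays. Of 9 adipocyte markers 0 were called (3 passed an unadjusted p under 0.05 in limma's fit in each comparison with MEF), with sums of 349.8 to 412 in iPS, 366 to 435 in R1 and 458 to 484 in MEF arrays. Adipoq, which defines adipocytes, was at 13.9 in iPS, 14 in R1 and 13.9 in MEF arrays on average. Pparg was lower, at -0.73 ± 0.088 in iPS cells (adjusted p = 6.63e-05) and -0.65 ± 0.088 in R1 cells (adjusted p = 0.000137), and so was Lpl, at -0.56 ± 0.089 in iPS cells (adjusted p = 0.000402) and -0.35 ± 0.089 in R1 cells (adjusted p = 0.00794), and Cd36 passed in R1 cells alone (-0.31 ± 0.094, adjusted p = 0.0198). The 6 macrophage markers summed to 404 to 427, 459 to 472 and 262 to 304, and the 8 endoderm markers to 537 to 632, 636 to 659 and 712 to 731, in iPS, R1 and MEF arrays. Of these 14 genes Cd68 was called higher in iPS and R1 cells and Gata6 lower in iPS cells, and the part of such cells in the results was not tested. Array medians lay between 78.2 and 83.3.

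**Figure D1:**
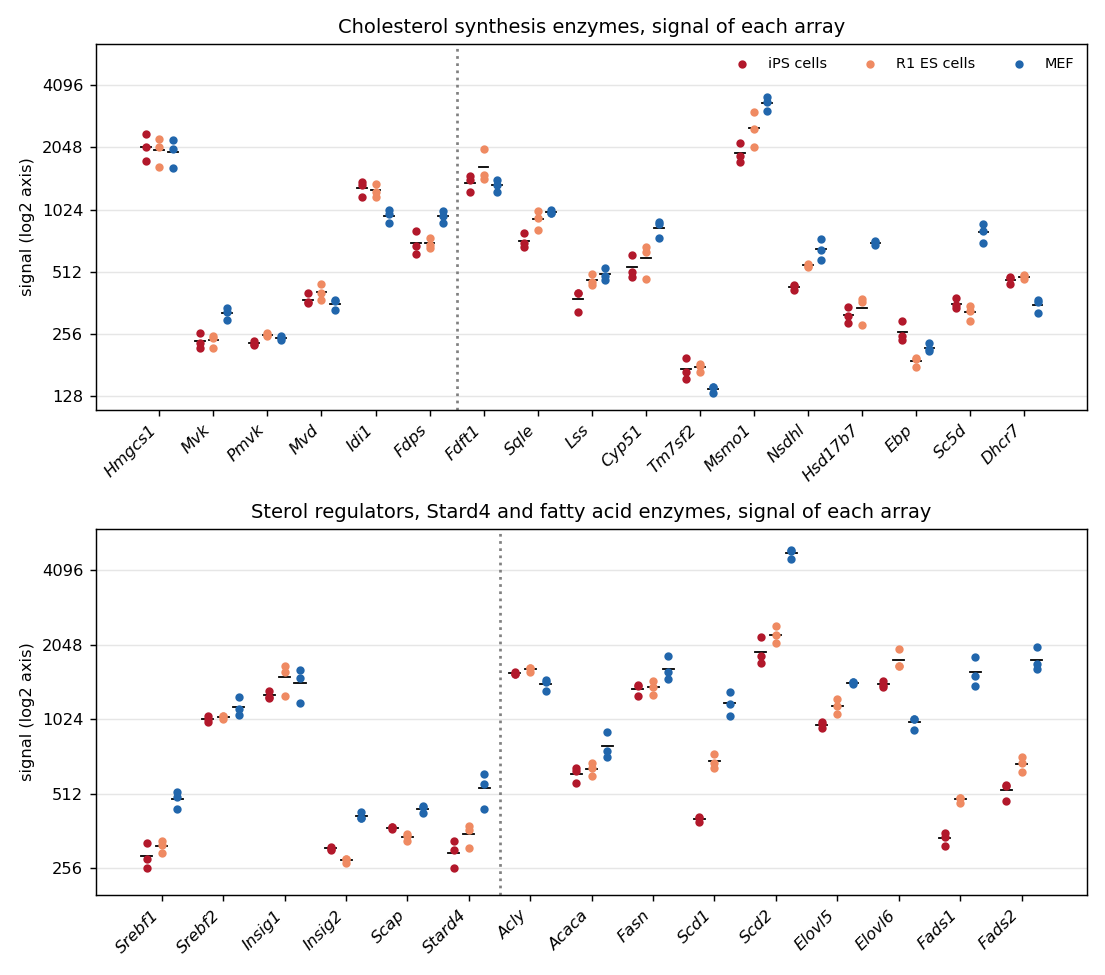
Signals of the 32 genes on each of the 9 arrays, on a log2 axis. Each point is 1 array and each black line the mean of the 3 arrays of iPS cells (dark red), R1 cells (orange) or MEF (blue), and dotted lines separate mevalonate from sterol enzymes (top) and regulators with Stard4 from fatty acid genes (bottom). MEF stand above both pluripotent groups for Hsd17b7, Sc5d, Scd1, Scd2, Fads1 and Fads2, while the 3 groups overlap for Hmgcs1.

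In iPS cells against MEF, 6 of the 32 genes were called lower (18.8%) and 0 higher (6 passed an unadjusted p under 0.05 in the higher direction in limma's fit). Of all genes, 7.57% were called lower and 5.08% higher. Every member is fairly bright, and of the 8210 genes at least as bright as the dimmest member 13.9% were called lower and 9.9% higher. With an adjusted p alone, 20 members were lower (62.5%) and 6 higher (18.8%), against 23.2% and 24.8% of all genes and 36.2% and 41.6% of the genes at least as bright. The median difference of the members was -0.40, beside 0.016 over all genes.

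In R1 cells against MEF, 5 of the 32 genes were called lower (15.6%) and 0 higher (7 passed an unadjusted p under 0.05 in the higher direction), against 7.93% and 5.56% of all genes and 14.4% and 10.9% of the genes at least as bright. With an adjusted p alone, 18 members were lower and 5 higher, against 23.0% and 25.9% of all genes and 36% and 42.7% of the genes at least as bright. The median difference was -0.27, beside 0.023 over all genes. Both comparisons use the same MEF arrays and are not independent of each other.

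By role, 0 of 6 mevalonate enzymes, 2 of 11 sterol enzymes, 0 of 6 regulators with the carrier Stard4 and 4 of 9 fatty acid genes were called lower in iPS cells, beside 7.57% of all genes and 13.9% of the genes at least as bright as the dimmest member. With lists this short, 2 of 11 (18.2%) and 0 of 6 lie near those shares. The 4 of 9 (44.4%) lie above them, but are Scd1 with Scd2 and Fads1 with Fads2, genes of similar sequence. In R1 cells 0, 2, 0 and 3 genes of these lists were called lower, beside 7.93% of all genes and 14.4% of those as bright. The medians of these lists were -0.0071, -0.46, -0.33 and -0.56 in iPS cells, and 0.035, -0.20, -0.46 and -0.32 in R1 cells. The 4 desaturases had medians of -1.61 in iPS and -1.23 in R1 cells, and the other 28 members -0.31 and -0.22. This split was not among the planned roles. The 4 were also the members that differed most in iPS cells, so the contrast of medians restates those differences.

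**Figure D2:**
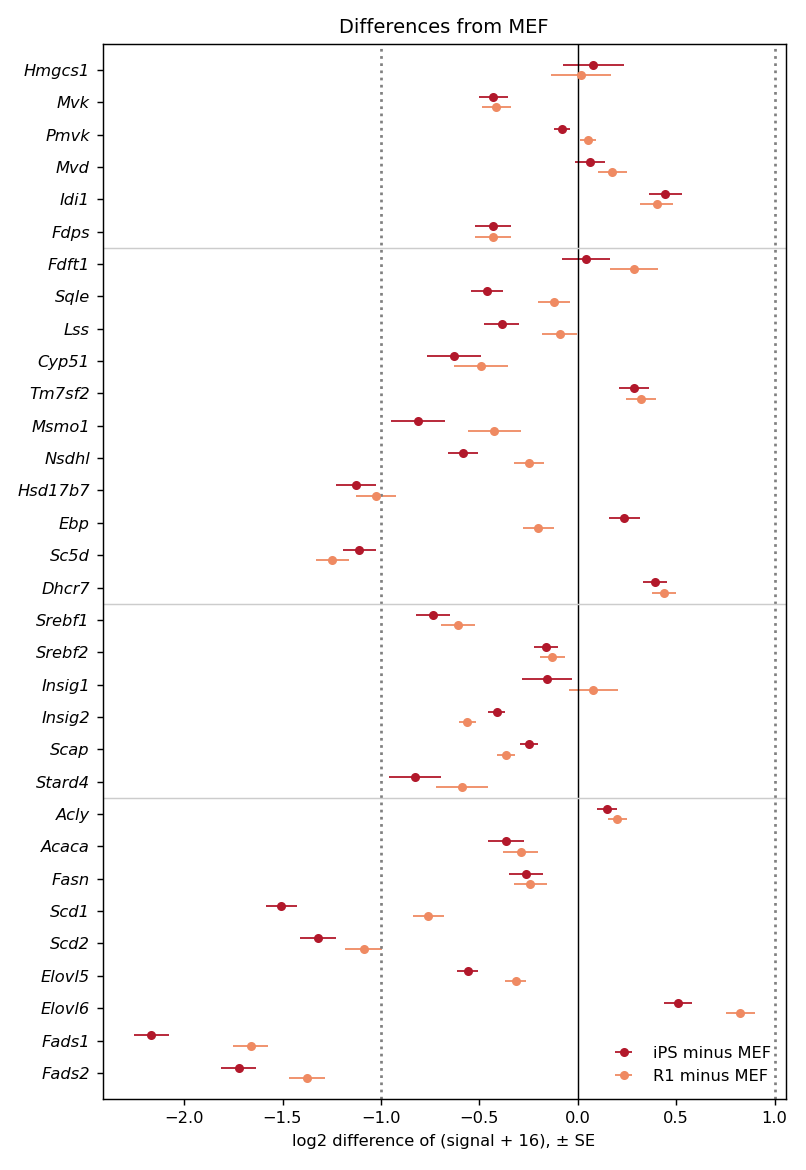
Log2 differences from MEF for the 32 genes, iPS minus MEF in dark red and R1 minus MEF in orange, with bars for the standard error of the fit. Dotted lines mark -1 and 1, and grey lines separate mevalonate enzymes, sterol enzymes, regulators with Stard4 and fatty acid genes, from top to bottom. The desaturases, Hsd17b7 and Sc5d lie lowest, and no gene reaches 1.

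None of the 6 enzymes of the mevalonate part reached a 2-fold difference from MEF. Hmgcs1, which makes HMG-CoA at the entry of the pathway, had signals of 2385, 1758 and 2062 in iPS arrays and 2048, 2257 and 1641 in R1 arrays, against 2019.8, 1629 and 2226 in MEF arrays. The 3 groups overlapped, and the range within each group was wider than the distance between their means. The difference was 0.079 ± 0.15 in iPS cells (adjusted p = 0.739) and 0.017 ± 0.15 in R1 cells (adjusted p = 0.949). Mvk, the kinase of mevalonate, averaged 236 ± 19.6 in iPS and 239 ± 16.6 in R1 arrays, against 323 ± 21.3 in MEF arrays. Neither pluripotent group overlapped MEF, and the difference was -0.43 ± 0.075 in iPS cells (adjusted p = 0.000833) and -0.41 ± 0.075 in R1 cells (adjusted p = 0.00103).

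Fdps, which joins isoprenoid units to farnesyl diphosphate, was lower by a similar amount, with 703 ± 90.9 in iPS and 702 ± 43 in R1 arrays, against 950.2 ± 62.5 in MEF arrays, and differences of -0.43 ± 0.091 in iPS cells (adjusted p = 0.00273) and -0.43 ± 0.091 in R1 cells (adjusted p = 0.00281). Idi1, the isomerase of the isoprenoid unit, lay on the other side of MEF, with 1309 ± 117 in iPS and 1269 ± 93.9 in R1 arrays, against 957 ± 70.7 in MEF arrays. Its arrays did not overlap MEF either, and the differences were 0.44 ± 0.084 in iPS cells (adjusted p = 0.00135) and 0.40 ± 0.084 in R1 cells (adjusted p = 0.00252). The second probe set of Idi1 gave 0.47 in iPS and 0.42 in R1 cells. Pmvk and Mvd, which act between Mvk and Idi1, were at -0.078 ± 0.041 and 0.064 ± 0.075 in iPS cells and at 0.053 ± 0.041 and 0.18 ± 0.075 in R1 cells, with adjusted p-values of 0.161, 0.558, 0.346 and 0.084. Mvd passed in R1 cells without R1 replicate 3 (0.24, adjusted p = 0.0318).

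Of the 11 enzymes from squalene to cholesterol, 2 fell. Hsd17b7, the ketoreductase of sterol demethylation, had signals of 313, 288 and 347 in iPS arrays and 365, 377 and 284 in R1 arrays, against 689.8, 714 and 719 in MEF arrays. All MEF arrays lay above all others, close together. The difference was -1.13 ± 0.10 in iPS cells (adjusted p = 8.1e-06) and -1.03 ± 0.10 in R1 cells (adjusted p = 1.5e-05), and the R1 call was lost without R1 replicate 3 (-0.90). Sc5d, which puts a double bond into the sterol ring late in the chain, had signals of 352, 343 and 383 in iPS arrays and 331, 349.7 and 296 in R1 arrays, against 803, 709 and 873 in MEF arrays. MEF were again separate from both pluripotent groups, which overlapped each other, with differences of -1.11 ± 0.086 in iPS cells (adjusted p = 2.64e-06) and -1.25 ± 0.086 in R1 cells (adjusted p = 1.08e-06).

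The neighbouring steps did not all follow. Dhcr7, the reductase of the final step, was above MEF, with 469 ± 20.7 in iPS and 484 ± 12 in R1 arrays, against 354 ± 25.9 in MEF arrays, and differed by 0.39 ± 0.060 in iPS cells (adjusted p = 0.000323) and 0.44 ± 0.060 in R1 cells (adjusted p = 0.000147). Tm7sf2, a sterol reductase, was also higher, at 0.29 ± 0.076 in iPS cells (adjusted p = 0.0104) and 0.32 ± 0.076 in R1 cells (adjusted p = 0.00551), short of the minimum. Msmo1, which oxidises methyl groups of the ring before they are removed, had signals of 1859, 1746 and 2149.8 in iPS arrays and 2521, 3040.3 and 2048 in R1 arrays, against 3421, 3083 and 3616 in MEF arrays. It was lower in every pluripotent array than in any MEF array, at -0.81 ± 0.14 in iPS cells (adjusted p = 0.000592) and -0.42 ± 0.14 in R1 cells (adjusted p = 0.0253). Nsdhl, which acts on the product of Msmo1, averaged 433 ± 12.4 in iPS and 550.1 ± 9.61 in R1 arrays, against 659 ± 77.8 in MEF arrays, with differences of -0.58 ± 0.075 in iPS cells (adjusted p = 0.000101) and -0.25 ± 0.075 in R1 cells (adjusted p = 0.0203). Cyp51, the lanosterol demethylase, differed by -0.63 ± 0.14 in iPS cells (adjusted p = 0.00333) and -0.49 ± 0.14 in R1 cells (adjusted p = 0.013). In R1 cells Msmo1 missed an adjusted p of 0.05 without R1 replicate 1 or 3 or MEF replicate 1 or 3 (up to 0.0894, and a difference of -0.28 without R1 replicate 3), and Nsdhl without R1 replicate 2 or 3 or MEF replicate 3 (up to 0.0587).

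Earlier in the sterol chain, Sqle, the squalene epoxidase, had signals of 704, 676 and 787 in iPS arrays and 936, 1009.9 and 815 in R1 arrays, against 982, 989 and 1024 in MEF arrays. The iPS arrays were below all MEF arrays while R1 arrays overlapped them, with -0.46 ± 0.082 in iPS cells (adjusted p = 0.000911) and -0.12 ± 0.082 in R1 cells (adjusted p = 0.276). Lss, the lanosterol synthase, had the same layout, with -0.39 ± 0.089 in iPS cells (adjusted p = 0.00459) and -0.090 ± 0.089 in R1 cells (adjusted p = 0.469). Fdft1, the squalene synthase, overlapped MEF in iPS arrays and lay slightly above them in R1 arrays, at 0.043 ± 0.12 in iPS cells (adjusted p = 0.828) and 0.29 ± 0.12 in R1 cells (adjusted p = 0.0831), and passed in R1 cells without R1 replicate 3 (0.38, adjusted p = 0.0375). The second probe set of Fdft1 gave 0.020 in iPS and 0.35 in R1 cells. Ebp, a sterol isomerase, stood on opposite sides of MEF, at 0.24 ± 0.079 in iPS cells (adjusted p = 0.0308) and -0.20 ± 0.079 in R1 cells (adjusted p = 0.061). Without iPS replicate 2 the iPS difference of Ebp was 0.15, adjusted p = 0.0957, and the adjusted p also missed 0.05 without MEF replicate 1 (0.093) or 3 (0.086), with median centring (0.0516) and with only these groups in the fit (0.0546). In R1 cells Ebp passed without iPS replicate 1 (0.0449) or 2 (0.0186).

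RefSeq promoters (GRCm38.p6, 250 bases before to 50 after a gene's start) were held for 25 of the 32 genes, in 33 windows. They were searched on both strands for the sterol regulatory element TCACNCCAC, which SREBPs bind, for CCAAT, the NF-Y site, for the GC box GGGCGG, to which Sp1 binds, and for the E-box CACGTG. Of the 25 genes, 21 held CCAAT (84.0%), 20 GGGCGG (80.0%), 6 CACGTG (24.0%) and 1 TCACNCCAC (4.0%). Of the 15614 genes of the arrays with a promoter in the table, 41.7%, 52.9%, 9.5% and 1.4% held them, and of all 32851 windows 37.4%, 35.7%, 7.15% and 1.24%. Shown are Hmgcs1 (chr13:119690101-119690400, plus strand), the gene with the sterol regulatory element and no detected difference between groups, and the 3 genes that fell in iPS cells and have a promoter in the table: Hsd17b7 (chr1:169969156-169969455, minus strand), Sc5d (chr9:42264251-42264550, minus strand) and Fads2 (chr19:10101454-10101753, minus strand). Capitals mark TCACNCCAC, CCAAT and GGGCGG on either strand, and no motifs overlapped in these windows.
Hmgcs1: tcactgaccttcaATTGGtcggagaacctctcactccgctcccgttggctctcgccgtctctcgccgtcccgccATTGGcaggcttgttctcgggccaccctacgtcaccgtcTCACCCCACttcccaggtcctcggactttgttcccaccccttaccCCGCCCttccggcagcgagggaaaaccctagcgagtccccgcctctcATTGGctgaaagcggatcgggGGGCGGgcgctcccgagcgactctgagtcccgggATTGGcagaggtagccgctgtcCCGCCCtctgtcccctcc
Hsd17b7: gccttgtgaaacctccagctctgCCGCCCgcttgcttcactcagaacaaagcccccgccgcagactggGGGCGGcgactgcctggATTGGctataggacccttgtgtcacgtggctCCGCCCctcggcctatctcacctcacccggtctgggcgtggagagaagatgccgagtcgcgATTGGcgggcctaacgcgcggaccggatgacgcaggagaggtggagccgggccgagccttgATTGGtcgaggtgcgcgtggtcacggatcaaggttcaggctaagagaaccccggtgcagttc
Sc5d: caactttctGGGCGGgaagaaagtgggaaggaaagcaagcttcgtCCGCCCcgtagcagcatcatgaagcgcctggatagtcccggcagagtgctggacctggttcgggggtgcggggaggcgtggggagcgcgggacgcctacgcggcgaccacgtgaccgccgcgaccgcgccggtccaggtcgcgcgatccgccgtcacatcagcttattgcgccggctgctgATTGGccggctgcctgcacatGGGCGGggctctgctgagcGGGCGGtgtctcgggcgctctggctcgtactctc
Fads2: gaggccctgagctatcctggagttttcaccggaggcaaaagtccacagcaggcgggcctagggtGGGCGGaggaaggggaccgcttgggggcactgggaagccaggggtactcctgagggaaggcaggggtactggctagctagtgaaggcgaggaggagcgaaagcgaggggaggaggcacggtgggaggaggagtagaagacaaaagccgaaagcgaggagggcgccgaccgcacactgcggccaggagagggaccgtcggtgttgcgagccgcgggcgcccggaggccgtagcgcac
Hmgcs1 held 4 CCAAT and 3 GGGCGG matches beside the sterol regulatory element, which lies at position -137, counted from the gene's start. Hsd17b7 held 3 of each, Sc5d 1 CCAAT and 4 GGGCGG, and Fads2 0 CCAAT and 1 GGGCGG. Hsd17b7 and Sc5d each also held 1 CACGTG, at positions -143 and -98, which is not in capitals. A match describes letters in the window and is not a measured binding site.

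None of the regulators was called. Srebf2, the SREBP gene best known for cholesterol synthesis, had signals of 996, 1024 and 1060.1 in iPS arrays and 1060.1, 1060.1 and 1031 in R1 arrays, against 1067, 1261 and 1128 in MEF arrays. MEF arrays were highest by a narrow margin, and the difference was -0.16 ± 0.062 in iPS cells (adjusted p = 0.0567) and -0.13 ± 0.062 in R1 cells (adjusted p = 0.122), and without MEF replicate 1 it passed in both (-0.21, adjusted p = 0.0173 in iPS and -0.18, adjusted p = 0.0355 in R1 cells). Srebf1, best known for fatty acid genes, had signals of 258, 324 and 280.1 in iPS arrays and 296, 317 and 329 in R1 arrays, against 446, 498 and 519 in MEF arrays. Its MEF arrays were clearly separate, with -0.73 ± 0.086 in iPS cells (adjusted p = 5.29e-05) and -0.61 ± 0.086 in R1 cells (adjusted p = 0.000193). Scap, the escort of the SREBPs, differed by -0.25 ± 0.046 in iPS cells (adjusted p = 0.00121) and -0.37 ± 0.046 in R1 cells (adjusted p = 8.13e-05).

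The Insig genes showed different layouts. Insig1, itself a target of SREBPs, averaged 1279 ± 47.3 in iPS and 1517 ± 219 in R1 arrays, against 1437 ± 219 in MEF arrays, with overlapping arrays and differences of -0.15 ± 0.13 in iPS cells (adjusted p = 0.373) and 0.079 ± 0.13 in R1 cells (adjusted p = 0.675). Insig2 had 307, 313 and 304 in iPS arrays and 280.1, 269 and 280.1 in R1 arrays, against 407, 407 and 431 in MEF arrays. Its groups were separate, with R1 lowest, and the differences were -0.41 ± 0.043 in iPS cells (adjusted p = 2.22e-05) and -0.56 ± 0.043 in R1 cells (adjusted p = 2.25e-06). Stard4, a sterol carrier between membranes, had signals of 329, 258 and 302 in iPS arrays and 367, 380.04 and 309 in R1 arrays, against 560.3, 443 and 617 in MEF arrays. Every MEF array was higher than every other array, but the difference stayed short of the minimum, with -0.83 ± 0.13 in iPS cells (adjusted p = 0.000422) and -0.59 ± 0.13 in R1 cells (adjusted p = 0.00367).

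Among the 9 fatty acid genes, the entry enzymes passed the adjusted p without a call. Acly, which cleaves citrate to acetyl-CoA, averaged 1574 ± 19 in iPS and 1633 ± 32.5 in R1 arrays, against 1419.8 ± 77 in MEF arrays, and differed by 0.15 ± 0.049 in iPS cells (adjusted p = 0.0303) and 0.20 ± 0.049 in R1 cells (adjusted p = 0.00618). Acaca, the acetyl-CoA carboxylase, differed by -0.37 ± 0.091 in iPS cells (adjusted p = 0.00713) and -0.29 ± 0.091 in R1 cells (adjusted p = 0.023). The second probe set of Acaca gave -0.52 in iPS and -0.42 in R1 cells. Fasn, the fatty acid synthase, differed by -0.26 ± 0.085 in iPS cells (adjusted p = 0.0272) and -0.24 ± 0.085 in R1 cells (adjusted p = 0.0401). Some of these small differences missed an adjusted p of 0.05 when 1 array was left out. In iPS cells Acly missed 0.05 without any 1 of the iPS replicates or MEF replicate 1 (up to 0.1), and Fasn without iPS replicate 3 (0.0988) or MEF replicate 2 (-0.18, adjusted p = 0.0847). In R1 cells Acaca missed it without R1 replicate 1 or 3 or MEF replicate 2 (up to 0.0883), and Fasn without iPS replicate 2, R1 replicate 1 or 2 or MEF replicate 2 or 3 (up to 0.143). Without MEF replicate 2 the R1 differences were -0.19 for Acaca and -0.15 for Fasn.

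In iPS cells against MEF the 4 desaturases were the members that differed most. Fads1, which adds a double bond in the making of long polyunsaturated fatty acids, had signals of 315, 357 and 343 in iPS arrays and 495, 471 and 495 in R1 arrays, against 1399, 1820.3 and 1531 in MEF arrays. The 3 groups were separate, with iPS lowest and MEF highest. The difference was -2.17 ± 0.089 in iPS cells (adjusted p = 4.17e-08) and -1.66 ± 0.089 in R1 cells (adjusted p = 1.87e-07). Fads2, which acts before Fads1 in that route, had signals of 553, 478 and 556 in iPS arrays and 685, 626 and 719 in R1 arrays, against 1641, 2006 and 1710.3 in MEF arrays. It had the same order of groups, and differed by -1.72 ± 0.090 in iPS cells (adjusted p = 1.87e-07) and -1.38 ± 0.090 in R1 cells (adjusted p = 7.69e-07).

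Scd1 and Scd2 encode stearoyl-CoA desaturases, which turn saturated into monounsaturated fatty acids. Scd1 had signals of 410.1, 393 and 413 in iPS arrays and 680.3, 744 and 653 in R1 arrays, against 1060.1, 1314 and 1184 in MEF arrays. The groups were separate in the same order as for Fads1. The difference was -1.51 ± 0.079 in iPS cells (adjusted p = 1.83e-07) and -0.76 ± 0.079 in R1 cells (adjusted p = 2.01e-05), and only that in iPS cells reached the minimum. Scd2 had signals of 2195, 1846 and 1722 in iPS arrays and 2077, 2436 and 2241 in R1 arrays, against 4545, 4939 and 4905 in MEF arrays. The pluripotent groups overlapped each other far below MEF, with differences of -1.32 ± 0.092 in iPS cells (adjusted p = 1.28e-06) and -1.09 ± 0.092 in R1 cells (adjusted p = 4.64e-06). The Scd genes are similar in sequence, as are the Fads genes, and how far a probe set reads more than 1 of them is uncertain here.

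The elongases among the members lay on opposite sides of MEF. Elovl6, which lengthens saturated and monounsaturated chains, had signals of 1468, 1389 and 1409 in iPS arrays and 1687, 1978 and 1675 in R1 arrays, against 929, 1024 and 1031 in MEF arrays. R1 was highest and MEF lowest without overlap, and the difference was 0.51 ± 0.072 in iPS cells (adjusted p = 0.000192) and 0.83 ± 0.072 in R1 cells (adjusted p = 5.71e-06), the highest of any member but short of a call. Elovl5, which lengthens polyunsaturated chains in the route of the Fads enzymes, averaged 974 ± 27.9 in iPS and 1157 ± 80 in R1 arrays, against 1442 ± 11.5 in MEF arrays, a difference of -0.56 ± 0.055 in iPS cells (adjusted p = 1.44e-05) and -0.32 ± 0.055 in R1 cells (adjusted p = 0.000761).

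Relatives of these enzymes outside the 32 genes were set beside them. Fads3, which stands next to Fads2 on chromosome 19, with Fads1 on the other side of Fads2, had signals of 98.4, 101 and 91.8 in iPS arrays and 86.8, 89.3 and 72.5 in R1 arrays, against 861, 989 and 923 in MEF arrays. It fell by 3.05 on the log2 scale in iPS (adjusted p = 2.65e-09) and fell by 3.25 in R1 cells (adjusted p = 1.69e-09). Scd3 and Scd4, which flank Scd2 on the same chromosome, were dim in every group, with means of 44.6 and 20.3 in iPS and 48 and 20 in R1 arrays, against 45.4 and 24.6 in MEF arrays. Elovl1, an elongase of very long chains, averaged 285 ± 19.7 in iPS and 278 ± 26 in R1 arrays, against 1429.98 ± 87.8 in MEF arrays, a difference of -2.27 ± 0.078 in iPS cells (adjusted p = 1.44e-08) and -2.30 ± 0.078 in R1 cells (adjusted p = 1.06e-08). Elovl7 was at 0.86 ± 0.073 in iPS and 0.77 ± 0.073 in R1 cells and Elovl4 at -0.87 ± 0.061 and -0.82 ± 0.061, none of them called. Fads6 did not pass, at 0.13 ± 0.093 in iPS cells (adjusted p = 0.328) and 0.21 ± 0.093 in R1 cells (adjusted p = 0.0945) in limma's fit.

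**Figure D3:**
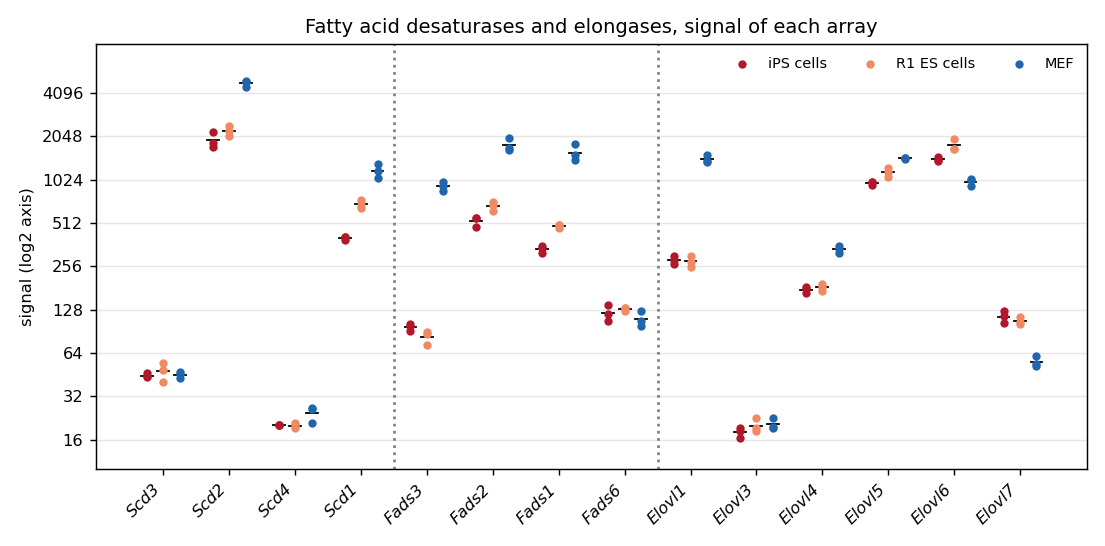
Signals of fatty acid desaturases and elongases on each array, on a log2 axis, for iPS cells (dark red), R1 cells (orange) and MEF (blue), with black lines for the means of 3 arrays. Scd1, Scd2, Fads1, Fads2, Fads3 and Elovl1 are lower in both pluripotent groups than in MEF, Elovl6 and Elovl7 are higher, and Scd3 and Scd4 are dim throughout.

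A wider set of 61 lipid genes was listed, of which 54 were measured. Of these, 2 were called higher and 6 lower in iPS cells, and 1 higher and 7 lower in R1 cells. These are 3.7% and 11.1% in iPS cells, beside 5.08% and 7.57% of all genes. In R1 cells they are 1.85% and 13%, beside 5.56% and 7.93%, so the calls lay near the background. With an adjusted p alone, 22.2% were higher and 50% lower in iPS cells, against 24.8% and 23.2% of all genes. In R1 cells 20.4% were higher and 46.3% lower, against 25.9% and 23.0%. The median differences were -0.26 in iPS and -0.16 in R1 cells. Among 6 genes of precursor supply, Aacs, which makes acetoacetyl-CoA, averaged 209.8 ± 15.4 in iPS and 269 ± 8.54 in R1 arrays, against 734 ± 50.9 in MEF arrays, and fell by 1.73 in iPS and fell by 1.39 in R1 cells on the log2 scale. Me1, a malic enzyme that supplies NADPH, averaged 450.4 ± 45.2 in iPS and 442 ± 47.5 in R1 arrays, against 1491 ± 87.8 in MEF arrays, and fell by 1.69 in iPS cells and fell by 1.72 in R1 cells. Ch25h, which makes an oxysterol that restrains SREBPs, fell among 10 genes of sterol storage, transport and oxidation, with 80.6 ± 8.4 in iPS and 74.1 ± 26.6 in R1 arrays, against 286 ± 65.4 in MEF arrays, and differences of -1.62 ± 0.20 in iPS cells (adjusted p = 8.23e-05) and -1.76 ± 0.20 in R1 cells (adjusted p = 4.42e-05).

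Among 9 genes of SREBP processing and sterol sensing, Mylip, a ubiquitin ligase of lipoprotein receptors, was at -0.76 ± 0.12 in iPS cells (adjusted p = 0.000333) and -1.25 ± 0.12 in R1 cells (adjusted p = 9.37e-06), called lower in R1 cells. Pgrmc1, a membrane protein, fell by 1.05 in iPS and fell by 1.03 in R1 cells, and the calls were lost without iPS replicate 1 (-0.97) and without R1 replicate 1 (-0.97). Usf1, a transcription factor of lipid genes, rose by 1.06 ± 0.083 in iPS cells and was at 0.95 ± 0.083 in R1 cells, uncalled. The iPS call was lost without MEF replicate 1 (0.99), and R1 cells gained a call without R1 replicate 2 (1.03) or MEF replicate 3 (1.01). Among 7 glycerolipid genes, Lpin1, a phosphatidate phosphatase, rose by 1.01 ± 0.15 in iPS and by 1.26 ± 0.15 in R1 cells. Its iPS call was lost without iPS replicate 2 (0.92), MEF replicate 1 (0.97) or MEF replicate 2 (0.92). Of 7 genes of fatty acid oxidation and 3 of the isoprenoid branch 0 were called against MEF in limma's fit, while 7 and 2 passed an unadjusted p under 0.05 in iPS cells and 6 and 2 in R1 cells.

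The iPS and R1 groups were then compared directly, which asks how close the derived cells were to embryonic stem cells in these genes. In limma's fit 0 of the 32 genes were called (14 passed an unadjusted p under 0.05), against 0.296% of all genes called higher and 0.166% called lower. With an adjusted p alone, 1 member was higher and 7 were lower in iPS cells, against 4.12% and 4.40% of all genes and 7.54% and 7.58% of the genes at least as bright. The median difference was -0.12, beside -0.0063 over all genes.

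The widest of these differences was that of Scd1, at -0.75 ± 0.079 (adjusted p = 0.000669), with a 95% interval of -0.92 to -0.57. Fads1 followed at -0.51 ± 0.089 (adjusted p = 0.00893) and Fads2 at -0.35 ± 0.090 (adjusted p = 0.0464), while Scd2 was at -0.23 ± 0.092 (adjusted p = 0.185). Elovl6 was at -0.32 ± 0.072 (adjusted p = 0.0268) and Elovl5 at -0.24 ± 0.055 (adjusted p = 0.0262). For Scd1, Fads1, Fads2 and Elovl5 the iPS mean was farther from MEF than the R1 mean, and for Elovl6 it was nearer. Beside this, Col1a1, the collagen marker of fibroblasts, averaged 1229 ± 108 in iPS against 785 ± 211 in R1 arrays (0.67 ± 0.15, adjusted p = 0.0289), the widest difference of the 10 fibroblast markers. Of the 10, 2 passed an adjusted p under 0.05, Col1a1 and Prrx1, 9 were above 0, and the median was 0.39, with Fbln5 at 0.050 ± 0.10 and Pdgfra at -0.31 ± 0.15. The part of fibroblast RNA in these differences was not tested. In limma's fit 1 of the 8 pluripotent markers, Zfp42, was called lower in iPS than in R1 cells (-2.77 ± 0.11, adjusted p = 2.91e-06). Zfp42 averaged 506 ± 54.7 in iPS and 3539 ± 257 in R1 arrays. Of the 8, 3 were lower by an adjusted p under 0.05, 7 were below 0, and the median was -0.21.

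Of the sterol enzymes, Ebp was higher in iPS cells, with 239, 296 and 251 in iPS against 194, 195 and 176 in R1 arrays, a difference of 0.44 ± 0.079 (adjusted p = 0.00962). Sqle and Nsdhl were lower, at -0.34 ± 0.082 (adjusted p = 0.0344) and -0.34 ± 0.075 (adjusted p = 0.0254), and for both the arrays of the groups were separate. Scd1, Fads1 and Ebp kept an adjusted p under 0.05 in all 19 alternative fits, while Sqle, Nsdhl, Elovl5, Elovl6 and Fads2 lost it in 8, 6, 6, 5 and 13 of them.

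The other 24 members did not pass, which bounds their differences without showing that they are absent. The whole 95% interval lay within -0.5 and 0.5 for 20 of them and within -1 and 1 for all 24. The interval of Msmo1 reached farthest, from -0.69 to -0.083. It ran from -0.28 to 0.41 for Hmgcs1, from -0.17 to 0.11 for Srebf2, from -0.21 to 0.17 for Fasn and from -0.33 to 0.13 for Hsd17b7.

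**Figure D4:**
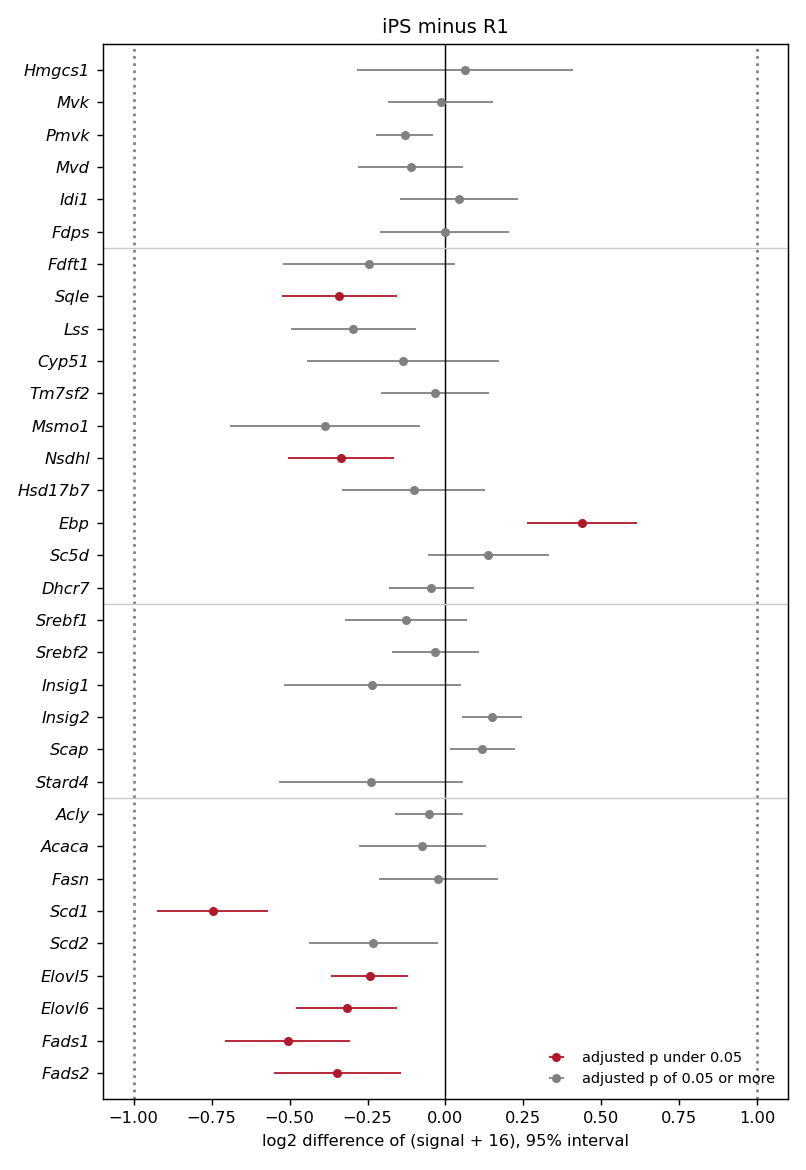
Log2 differences of iPS minus R1 cells for the 32 genes with 95% intervals of the fit, in red where the adjusted p was under 0.05 and in grey otherwise. Dotted lines mark -1 and 1. Scd1 lies farthest from 0 at -0.75, Ebp is the red gene above 0, and no interval reaches -1 or 1.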

How the data were processed

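RNA of 9 samples was labelled and hybridised, 1 array each. The deposited values are linear intensities per probe set, and GCOS 1.4 is named, without a role, per the submitters' processing notes. How background was corrected and how probes were summarized and normalized is not given in the sources used here, and no detection calls were used. The number of arrays limits the precision.

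Gene symbols came from the platform annotation: 21789 of 35557 probe sets carried 1 symbol, 1621 several and 12147 were not listed, which left 19938 genes. Differences were fitted in limma 3.58.1 (R 4.3.3; lmFit and eBayes, 6 residual degrees of freedom) with 1 mean for each group, and Benjamini-Hochberg adjustment ran over every gene. The scripts were tested on simulated data. Same-numbered replicates of different groups correlated at -0.082 to 0.245 in their deviations, and differently numbered ones at -0.231 to 0.198. The pairs of replicates 1 were the highest, at 0.21 to 0.245. Whether arrays of different groups were handled together was not tested. The numbers were not used to pair samples in the main fit, and the replicate block is given as an alternative. Members and lists were chosen with earlier results of these data known. Of the other lipid genes, called ones were named, at most 4 a list, and Scd3, Scd4, Fads6, Elovl4, Elovl7 and Cpt1a after their values were seen. Alternatives varied normalization, pseudocount (1 and 64), dim genes, probe sets, thresholds, variance model and arrays.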

Additional observations from a re-analysis of the deposited data

Results flagged for a closer look

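For 8 of the 32 genes the signed difference from MEF was not the same in iPS and R1 cells by limma's test of iPS against R1 at an adjusted p under 0.05, 1 higher and 7 lower in iPS cells, beside 4.12% and 4.40% of all genes. Ebp lay on opposite sides of MEF at about the same distance, at 0.24 in iPS cells (limma's adjusted p = 0.0308) and -0.20 in R1 cells (0.061). The R1 difference did not pass, and the iPS difference missed 0.05 in several alternatives. The differences of iPS minus R1 were -0.75 for Scd1, -0.51 for Fads1, -0.35 for Fads2, -0.32 for Elovl6, -0.24 for Elovl5, -0.34 for Sqle, -0.34 for Nsdhl and 0.44 for Ebp. Over 19 alternative fits, limma's adjusted p ranged from 0.00016 to 0.00484 for Scd1, from 0.00222 to 0.0386 for Fads1 and from 0.00262 to 0.0382 for Ebp. It ranged from 0.00987 to 0.148 for Fads2, from 0.0157 to 0.115 for Sqle, from 0.00564 to 0.0894 for Nsdhl, from 0.0141 to 0.0886 for Elovl6 and from 0.0171 to 0.0842 for Elovl5. Without iPS replicate 1 or iPS replicate 2 all of these last 5 genes missed the threshold. Without iPS replicate 3 all but Sqle missed it, without R1 replicate 1 all but Elovl6, and without R1 replicate 2 all but Fads2. Nsdhl and Fads2 missed it without R1 replicate 3, and Sqle and Fads2 without MEF replicate 1 or MEF replicate 3.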

How the results depend on the processing

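Of 21 alternatives per comparison, only those that changed the threshold moved the count of members called by over 1.5 times, though not in every comparison. With no minimum difference the count was 26 for iPS against MEF, 23 for R1 against MEF and 8 for iPS against R1. Limma's test against a difference of 1 left 2 for R1 against MEF, 4 for iPS against MEF and 0 for iPS against R1. Of these only the first moved by over 1.5 times. That test dropped the calls of Hsd17b7 and Sc5d in both comparisons with MEF, and that of Scd2 in R1 cells. Leaving out 1 array gave 6 for iPS against MEF, 4 to 5 for R1 against MEF and 0 for iPS against R1. With the replicate block the counts were 6, 5 and 0, and among the genes past the adjusted p in iPS against R1 Sqle and Fads2 missed it. Stard4 was called in iPS cells with array weights (-1.02), and Hsd17b7 in R1 cells was not called with quantile normalization (-0.99) or a pseudocount of 64 (-0.93). Signs turned for 11 differences, all with an adjusted p of 0.161 or more. Array weights turned Hmgcs1 (-0.13) and Fdft1 (-0.056) in iPS against MEF, Hmgcs1 (-0.14) and Insig1 (-0.064) in R1 against MEF, and Mvk (0.0090) in iPS against R1. Quantile normalization turned Pmvk in iPS against MEF (0.0061) and Fdps in iPS against R1 (0.013). With 1 array left out, Hmgcs1 ranged from -0.046 to 0.19 and Fdft1 from -0.012 to 0.12 in iPS against MEF, and Hmgcs1 from -0.11 to 0.15 and Insig1 from -0.048 to 0.20 in R1 against MEF. In iPS against R1 the ranges were -0.066 to 0.17 for Hmgcs1, -0.077 to 0.031 for Mvk, -0.0066 to 0.12 for Idi1, -0.10 to 0.075 for Fdps, -0.12 to 0.032 for Tm7sf2 and -0.072 to 0.025 for Fasn. The cause was not tested.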

Other observations

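Cpt1a, which admits fatty acids to mitochondria for oxidation, lies outside the 32 genes and was picked after its values were seen. It averaged 294 ± 12.5 in iPS and 459.98 ± 61.9 in R1 arrays, against 239 ± 21 in MEF arrays, and iPS minus R1 was -0.61 ± 0.095 (limma's adjusted p = 0.00522). Cpt1a did not stand alone. Of the 54 other lipid genes measured, 8 were lower (14.8%) and 1 higher (1.85%) by limma's adjusted p under 0.05, beside 4.40% and 4.12% of all genes. Their differences of iPS minus R1 ran from -0.63 to 0.49, and 0 were called.

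The cholesterol enzymes were often lowest together on single arrays of a group, a pattern looked at after the values were seen. Of the 17 cholesterol enzymes, iPS replicate 2 was the lowest array of its group for 14, against 26.7% of all genes. R1 replicate 3 was lowest for 13, against 29% of all genes. MEF replicate 1 was lowest for 12 and for all 9 fatty acid genes, against 34.2% of all genes. In the other groups the fatty acid genes were spread, with 2, 3 and 3 of them lowest on iPS replicates 1, 2 and 3 and 3 on each R1 replicate. R1 replicate 2 was the highest array of its group for 12 of the 17, against 29.7% of all genes. MEF replicate 3 was highest for 10 of the 17, against 27.1% of all genes. MEF replicate 2 was highest for 7 of the 9 fatty acid genes, against 35.3%. In the iPS group replicates 1 and 3 were highest for 8 and 7 of the 17, against 37.4% and 28.9%. Whether culture conditions moved with these arrays was not tested.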
